A study of Mus musculus with 2 samples.

Results

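Among the γδ T cells of the murine liver, 293 of 8075 kept cells carried at least 1 transcript of Il4, the gene of interleukin 4, together with few or no transcripts of natural killer (NK) and myeloid genes. These cells, called Il4 cells here, made up 3.63% of the kept liver cells (exact binomial 95% interval 3.23% to 4.06%). They were selected on measured values in the liver library: at least 1 unique molecular identifier (UMI, the tag that counts a captured transcript) of Il4, at most 1 UMI of Tyrobp and Ncr1 together, and at most 3 UMIs of Lyz2, C1qa, C1qb and C1qc together. Kept cells had 800 to 4000 detected genes and at most 6% mitochondrial UMIs, and both libraries together held 12426 of them. The Il4 cells were set against 2491 liver cells without an Il4 UMI but with at least 2 UMIs of Cd28, Socs2 and Cd40lg together, called Cd28 Socs2 Cd40lg cells, and against the 5291 other liver cells. The levels of these genes follow from how the groups were chosen and are given as a description.

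The antigen receptor of γδ T cells pairs a γ chain with a δ chain. Interleukin 4 is a cytokine of type 2 immunity that acts on B cells, macrophages and other T cells through a receptor with the Il4ra subunit and the transcription factor Stat6. A subset of γδ T cells makes interleukin 4 together with interferon γ, depends on the transcription factor PLZF (Zbtb16), settles in the liver and is called γδ NKT cells after the natural killer T cells it resembles. Cd28 and Cd40lg encode a costimulatory receptor and the ligand that T cells present to CD40 on other cells, and Socs2 encodes an inhibitor of cytokine signalling.

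Il4 (ENSMUSG00000000869) lies on chromosome 11 at 53612460 to 53618665 (RefSeq, GRCm38.p6). Its promoter is shown because transcripts from this gene define the cells. The NFAT factors, which T cell receptor signals bring to the nucleus, are known to bind this promoter at ATTTTCC elements. RefSeq lists 2 start sites, and the upstream one gives the window chr11:53618616-53618915 on the minus strand, from 250 bases before the start to 50 after it. Capitals mark ATTTTCC, or its reverse complement GGAAAAT:

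Il4 promoter: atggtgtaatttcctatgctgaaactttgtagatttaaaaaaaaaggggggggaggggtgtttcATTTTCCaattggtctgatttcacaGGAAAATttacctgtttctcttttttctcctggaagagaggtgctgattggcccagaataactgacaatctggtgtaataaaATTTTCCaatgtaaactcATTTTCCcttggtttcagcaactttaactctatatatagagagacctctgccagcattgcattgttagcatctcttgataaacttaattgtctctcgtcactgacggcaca

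The window held 4 matches, 3 as ATTTTCC and 1 as GGAAAAT. Of 32851 RefSeq promoter windows of this length, 4.82% held at least 1 match on either strand, and 1 window, that of Il4, held 4 or more. The motif was chosen for what is known of Il4, and a match is a description of the letters.

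The cells came from C57BL/6J mice aged 8 weeks, with 1 library of γδ T lymphocytes from the liver and 1 from the thymus. By the study's description the cells of several mice went into the libraries, and no cell can be traced to its mouse here. By the study's methods, cells were sorted by antibodies to CD3e and the γδ receptor, and only the thymic suspension was first depleted of CD4 and CD8 cells with magnetic beads. Neither animals nor cells carried a transgene, deletion or treatment by the labels. The liver library held 8658 barcodes and 25040963 UMIs, and the thymus library 4541 barcodes and 17371662 UMIs. They shared 60 barcodes, of which 1 was an Il4 cell of the liver. A level is given in CPM: a gene's UMIs were summed within a group, divided by all UMIs of the group and multiplied by 1000000. The values in parentheses after a level are exact Poisson 95% limits, those after a ratio of CPM come from the exact binomial split of the UMIs, and those after a share are exact binomial limits. All of them describe error from counting alone. Since each tissue has 1 library and no replicate, no test was run and no difference was checked against replicate spread.

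The Il4 signal in most cells was a single molecule. Of the 293 Il4 cells, 245 (83.6%) had 1 Il4 UMI, 37 had 2, 7 had 3, 2 had 4, 1 had 5 and 1 had 11. Together they held 364 of the 414 Il4 UMIs in kept liver cells. With a median of 1 per cell, a cell without an Il4 UMI was not shown to lack the transcript. After random thinning of every cell to 1500 UMIs, 62.1% of the Il4 cells still had one. The Il4 cells had between 1698 and 9310 UMIs, with a median of 2868, close to the 2843 of the Cd28 Socs2 Cd40lg cells and above the 2694 of the other cells. Their median was 1175 detected genes and 1.95% mitochondrial UMIs, against 1149 genes and 2.03% in the Cd28 Socs2 Cd40lg cells. Doublets were not called.

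The limit on NK genes left out 41 kept cells with Il4, and the myeloid limit left out no cell with Il4. Just inside the NK limit, 72 Il4 cells had 1 UMI of Tyrobp and Ncr1, and just outside it 17 cells with Il4 had 2. The cells left out had a median of 3561 UMIs, deeper than the Il4 cells, and 35 of 41 of them had at least 2 UMIs of Cd28, Socs2 and Cd40lg.

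Il4 was concentrated in liver cells with Cd28, Socs2 and Cd40lg. An Il4 UMI was found in 0.679% (0.448% to 0.987%) of the 3974 kept liver cells without a UMI of these 3 genes and in 14.2% (12.1% to 16.6%) of the 1004 cells with at least 5. Between them the share was 1.96% at 1 UMI, 6.54% at 2 and 8.76% at 3 or 4. Each share was higher than the one before it, but the intervals at 2 and at 3 or 4 UMIs overlapped. Depth differed little along this series, from a median of 2676 UMIs to 2874, and in cells thinned to 1500 UMIs the share still went from 0.403% to 8.67%.

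Liver cells with at least 2 UMIs of Tyrobp and Ncr1 are called Tyrobp Ncr1 cells. Of the 2543 of them with no UMI of Cd28, Socs2 or Cd40lg, 3 had an Il4 UMI, 0.118% (0.0243% to 0.344%) at a median of 2712 UMIs. It was the lowest of the shares compared here, and whether free RNA left these UMIs was not tested. Among Tyrobp Ncr1 cells with at least 5 UMIs of the 3 genes, the share was 8.72% (5.33% to 13.3%) at a median of 3290 UMIs. A higher share with more UMIs of the 3 genes was thus seen on both sides of the NK limit.

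**Figure D1:**
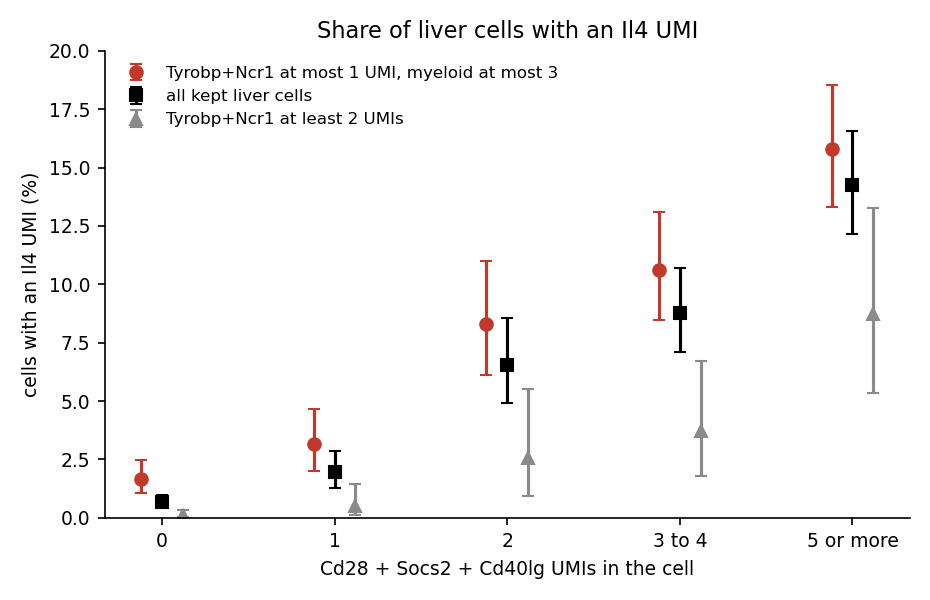
Share of liver cells with an Il4 UMI (y axis, percent) by the summed UMIs of Cd28, Socs2 and Cd40lg in the cell (x axis). Squares are all kept cells, circles those within the limits on NK and myeloid genes, triangles those with at least 2 UMIs of Tyrobp and Ncr1, and bars exact binomial 95% intervals. In all 3 populations the share is lowest at 0 UMIs and highest at 5 or more, where it is 14.2%, 15.8% and 8.72%.

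Seen from the Il4 cells, 246 of 293 (84.0%, 79.2% to 88.0%) had at least 2 UMIs of the 3 genes, against 2526 of 7782 of the remaining kept liver cells (32.5%, 31.4% to 33.5%) and 1804 of 3920 of those within the same NK and myeloid limits (46.0%, 44.5% to 47.6%). Cd28 was detected in 82.3% of the Il4 cells and 38.3% of the remaining cells, Socs2 in 60.1% and 20.5%, and Cd40lg in 29.7% and 9.35%. All 3 were detected in 50 Il4 cells (17.1%) and none in 24 (8.19%). Of all liver cells with at least 2 UMIs of the 3 genes, 8.87% (7.84% to 10.0%) were Il4 cells. In 4 nearly equal classes of the kept cells by depth, from the shallowest up, this share was 7.17%, 7.79%, 11.8% and 8.49%, and the lowest and highest of these had intervals that met (5.21% to 9.56% and 9.46% to 14.4%).

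Markers of T cells are described in cells that were already sorted on CD3e, so they cannot test the γδ label. A UMI of Cd3d, Cd3e or Cd3g, the CD3 chains of the T cell receptor complex, was found in 292 of 293 Il4 cells, and Cd3e was at 755 (699 to 814) CPM in them and 768 (749 to 788) CPM in the Cd28 Socs2 Cd40lg cells. None of the 9 T cell identity genes differed by 2-fold between these groups. The genes of the receptor loci are not among the genes listed, so γδ and αβ receptor chains were not analysed here. By the study's account the hepatic sort was not fully pure, and the receptor type of single Il4 cells was not shown. Zbtb16 was found in 34 Il4 cells, at 39.0 (27.2 to 54.3) CPM against 23.8 (20.6 to 27.5) in the Cd28 Socs2 Cd40lg cells and 18.5 (16.4 to 20.8) in the other cells. That was 1.64-fold (1.11 to 2.36) the level of the first group and 1.46-fold (0.980 to 2.13) that of its cells within the same NK and myeloid limits, an interval that includes 1. Zbtb7b, which encodes the factor ThPOK, was at 27.9 (18.0 to 41.2), 23.0 (19.8 to 26.5) and 16.7 (14.7 to 18.8) CPM, and 3 Il4 cells had UMIs of both factors.

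Most markers of other cells that make interleukin 4 were at or near 0, but Hdc and Il17rb were higher than in Cd28 Socs2 Cd40lg cells. Of 8 basophil and mast cell genes, Mcpt8, Ms4a2, Fcer1a, Gata2, Cd200r3 and Prss34 were at 0 UMIs in the Il4 cells, which allows up to 3.35 CPM each, and Cpa3 had 2 UMIs. Hdc, which encodes histidine decarboxylase, was at 27.9 (18.0 to 41.2) CPM, in 21 cells, against 12.2 (9.87 to 14.9) in the Cd28 Socs2 Cd40lg cells. Of 6 group 2 innate lymphoid cell (ILC2) genes, Il1rl1 and Arg1 were at 0, and the sum was 17.8 CPM against 16.1. Il17rb, also a marker of ILC2, was found in 2.05% of Il4 cells, on 7 UMIs, and in 0.201% of Cd28 Socs2 Cd40lg cells. The summed level of the 8 basophil and mast cell genes was 30.1 CPM in Il4 cells, 14.4 in Cd28 Socs2 Cd40lg cells and 6.60 in other cells. For the 7 B cell, 6 erythroid, 9 hepatocyte and 6 endothelial genes the sums in Il4 cells were 19.0, 20.1, 11.2 and 12.3 CPM, close to those of the Cd28 Socs2 Cd40lg cells (18.7, 20.1, 14.1 and 17.9). The 16 myeloid genes summed to 214 CPM in Il4 cells, 241 in Cd28 Socs2 Cd40lg cells and 1314 in other cells, with Csf1r and Adgre1 at 0. Of these 16, 4 were genes of the selection, limited in the Il4 cells only, so the distance to the other cells is partly set by it. Cd28 Socs2 Cd40lg cells within the same NK and myeloid limits summed to 132 CPM, below the Il4 cells. A single cell stood apart: an Il4 cell with 3 Il4 UMIs held 72 of the 88 Cd74 UMIs, 23 of the 27 H2-Aa UMIs and 17 of the 26 H2-Ab1 UMIs of the whole group, and also 4 Cd79a UMIs and 3 Cd3e UMIs. Levels of MHC class II genes in Il4 cells therefore rest on 1 cell.

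Against Cd28 Socs2 Cd40lg cells without Il4, the Il4 cells had more transcripts of Icos, Ly6a, Ccr2 and Rora and fewer of genes for recirculation (Ccr7, S1pr1, Klf2), of Tcf7, and of several NK receptors and chemokines. Few genes were far apart. In all, 2577 genes reached a sum of 50 UMIs and 50 CPM in the higher group and were compared, and 14 (0.543%) were at least 2-fold higher and 24 (0.931%) at least 2-fold lower in the Il4 cells. With ribosomal-protein and mitochondrial UMIs left out of the totals, 16 were higher and 46 lower. The median log2 ratio over the compared genes was 0.04, with 90% of the genes between -0.41 and 0.46. The limits on NK and myeloid genes had been put on the Il4 cells only. Against the 1804 of 2491 Cd28 Socs2 Cd40lg cells that also met them, called matched cells here, 9 genes (0.35%) were at least 2-fold higher and 19 (0.739%) at least 2-fold lower.

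**Figure D2:**
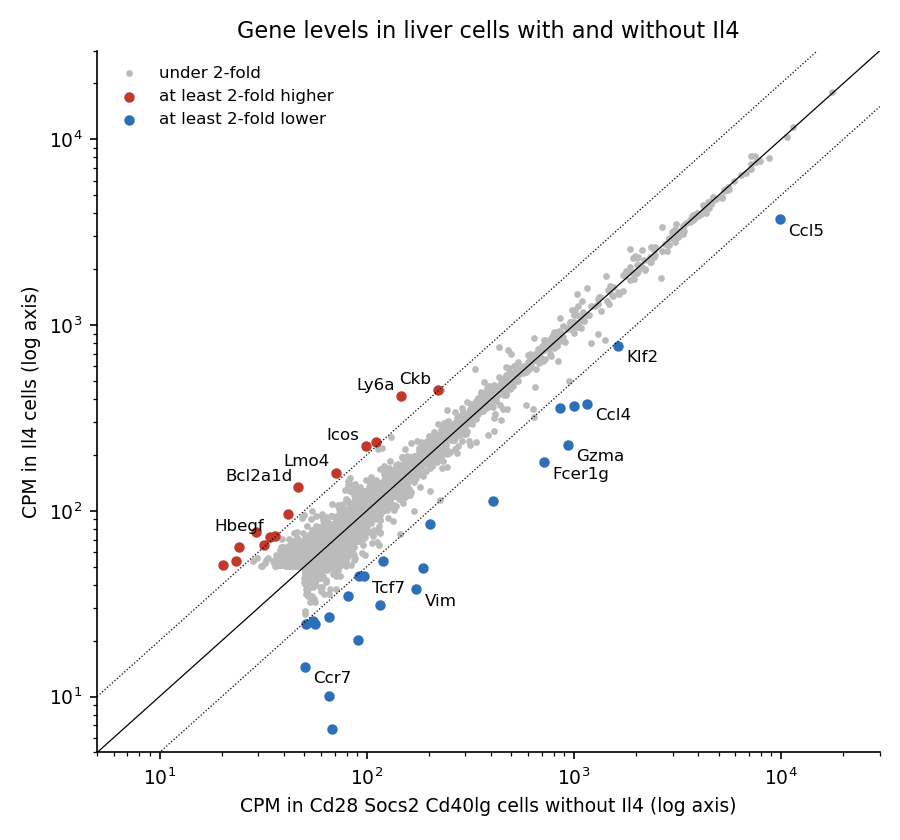
CPM of each compared gene in Il4 cells (y axis) against Cd28 Socs2 Cd40lg cells without Il4 (x axis), both log axes. Each point is 1 gene, the solid line marks equal levels and the dotted lines 2-fold differences. The 14 genes at least 2-fold higher and the 24 at least 2-fold lower lie outside the dotted lines, with Ly6a at 416 against 146 CPM and Klf2 at 776 against 1639 CPM among them.

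Icos, which encodes a costimulatory receptor of activated and follicular helper T cells, was at 223 (193 to 256) CPM in Il4 cells, 99.0 (92.2 to 106) in Cd28 Socs2 Cd40lg cells and 44.1 (40.8 to 47.6) in other cells, a ratio of 2.25-fold (1.92 to 2.63) to the Cd28 Socs2 Cd40lg cells and 1.90-fold (1.61 to 2.23) to the matched ones. Ly6a, which encodes the surface protein Sca-1, was at 416 (375 to 460.3) CPM against 146 (138 to 155), 2.84-fold (2.52 to 3.20) higher, and 2.24-fold (1.98 to 2.52) higher than in matched cells. Per cell, Ly6a ranged from 0 to 13 UMIs with a median of 1 in Il4 cells and from 0 to 12 with a median of 0 in the Cd28 Socs2 Cd40lg cells, so the groups overlapped cell by cell.

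Of the 18 regulators of innate-like T cells, 11 could be compared, 1 (Icos) was at least 2-fold higher and 1 (Tox) at least 2-fold lower, and the median log2 ratio was 0.16. Id2, an inhibitor of E proteins, was at 1472 (1394 to 1553) CPM against 1042 (1019 to 1064), and Rora, a nuclear receptor of innate lymphocytes, at 251 (219 to 286) against 132 (124 to 139.9). Gata3, the main factor of type 2 T cells, was at 143 (119 to 169.7) CPM against 109 (102 to 116), a ratio of 1.31-fold (1.08 to 1.58) and 1.25-fold (1.02 to 1.51) to matched cells. All of these were higher in Il4 cells by less than 2-fold. Tox was at 24.5 (15.4 to 37.1) CPM against 50.7 (45.9 to 55.9), and 1.86-fold lower than in matched cells. Izumo1r, which encodes folate receptor 4, and the chromatin organiser Satb1 were 1.61-fold (1.20 to 2.11) and 1.43-fold (1.20 to 1.70) higher than in the Cd28 Socs2 Cd40lg cells and 1.33-fold (0.991 to 1.75) and 1.25-fold (1.05 to 1.49) than in matched cells.

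Among the 22 costimulation and TNF family genes, 9 could be compared, Icos was the 1 gene at least 2-fold higher and none was at least 2-fold lower, with a median log2 ratio of 0.29. Cd28, Socs2 and Cd40lg chose the Cd28 Socs2 Cd40lg cells and are only described: Cd28 was at 868 (808 to 931) CPM in Il4 cells and 944 (923 to 966) in those cells, Socs2 at 491 (446 to 539) and 269.9 (259 to 282), and Cd40lg at 128 (106 to 154) and 106 (98.5 to 113). The Cd28 Socs2 Cd40lg cells were chosen on the summed UMIs of these genes. A Socs2 UMI was found in 43.6% of them and a Cd28 UMI in 89.8%. Tnfsf11, which encodes the cytokine RANKL and lay under the minimum of 50 CPM, was at 29.0 (18.9 to 42.5) CPM (26 UMIs) against 9.16 (7.18 to 11.5).

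Genes for leaving tissue and entering lymph nodes were lower in Il4 cells than in Cd28 Socs2 Cd40lg cells. Of 20 homing and tissue residence genes, 13 could be compared against the Cd28 Socs2 Cd40lg cells, 1 (Ccr2) was at least 2-fold higher and 4, with Ccr7, Klf2 and Itga4 among them, at least 2-fold lower. Ccr7, the receptor that guides T cells to lymph nodes, had 13 UMIs in 6 Il4 cells and was 3.48-fold (2.01 to 6.59) lower, at 14.5 (7.72 to 24.8) against 50.5 (45.6 to 55.6) CPM, and 4.35-fold (2.51 to 8.25) lower than in matched cells. S1pr1, the receptor for leaving tissue along a lipid gradient, was at 12.3 (6.12 to 21.9) against 46.7 (42.1 to 51.7), and passed the minimum of 50 CPM only among matched cells, at 53.8. Klf2, a factor known to drive S1pr1, was at 776 (719 to 836) CPM against 1639 (1611 to 1667), 2.11-fold (1.96 to 2.28) lower. Ccr7 was detected in 2.05% of Il4 cells, 7.35% of Cd28 Socs2 Cd40lg cells, 2.97% of other and 1.55% of Tyrobp Ncr1 cells. For S1pr1 these shares were 3.41%, 10.5%, 7.58% and 3.42%, so a low share was not particular to Il4 cells.

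In the other direction, Ccr2, a receptor of monocyte-attracting chemokines, was at 235 (205 to 269) against 111 (104 to 119) CPM, 2.12-fold (1.81 to 2.46) higher and 1.82-fold (1.55 to 2.12) higher than in matched cells. Cxcr6, the receptor for the chemokine Cxcl16 of liver sinusoids, was 1.53-fold (1.41 to 1.67) higher, at 735 (679.8 to 793) against 479 (464 to 494). The tissue residence genes Cd69 and Itga1 were at 0.804 and 0.943 times the Cd28 Socs2 Cd40lg cells, and Itgae had 0 UMIs in Il4 cells against 5.27 CPM.

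Tcf7 and Ly6c2, genes of naive-like T cells, were lower as well than in Cd28 Socs2 Cd40lg cells. Of 14 precursor and naive-like genes, 6 could be compared, with a median log2 ratio of -0.70, and Tcf7, which encodes the factor TCF-1, was the 1 at least 2-fold lower, at 44.6 (31.9 to 60.7) CPM against 96.8 (90.1 to 104). Against matched cells, Ly6c2 was also at least 2-fold lower (321 against 660.5 CPM). Satb1, of the same list, went the other way, with a log2 ratio of 0.52 to the Cd28 Socs2 Cd40lg cells. Against the other liver cells the log2 ratios of the 6 compared genes were mixed. They were -0.30 for Tcf7, -2.78 for Cd8a, 0.31 for Ly6c2, 0.41 for Lef1, 0.54 for Il7r and 1.63 for Satb1. Sox4, a factor of developing lymphocytes, had 3 UMIs and 3.35 (0.690 to 9.78) CPM against 32.4 (28.6 to 36.6). Cd24a and Dapl1 had none, at least 4.50-fold and 5.55-fold lower than the Cd28 Socs2 Cd40lg cells when 3 counts over the group are taken as the limit. Il7r was at 1.12 times, and Nt5e, which encodes CD73, was at 32.3 (21.7 to 46.4) CPM against 18.3 (15.5 to 21.6). Cd4 had 8 UMIs in 7 Il4 cells, 8.92 (3.85 to 17.6) CPM against 2.13 (1.24 to 3.42), in a liver suspension that had not been depleted of CD4 cells.

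Among the genes that could be compared, fewer NK receptor and cytotoxic or chemokine genes were at least 2-fold lower against matched cells than against all Cd28 Socs2 Cd40lg cells. Of 18 NK receptor genes, 10 could be compared and 6 were at least 2-fold lower than in the Cd28 Socs2 Cd40lg cells (Fcer1g, Klrd1, Klre1, Klra1, Klra5 and Klra7). Against matched cells 8 could be compared, and 2 (Fcer1g and Klre1) were at least 2-fold lower. Klra1 was not compared there because of the minimum, though it was also more than 2-fold lower than in matched cells. Fcer1g, the adaptor of activating receptors, was at 183 (156 to 213) CPM in Il4 cells, 717 (698 to 736) in Cd28 Socs2 Cd40lg cells and 373 (357 to 389.9) in matched cells. Klrd1, which encodes CD94, was at 356 (318 to 397), 855 (834 to 875) and 678 (657 to 701) CPM. Klrk1 and Klrb1c, the genes of NKG2D and NK1.1, were at 0.973 and 1.10 times the matched cells. Klra genes are near-identical copies whose reads may be shared among them, so their single levels are uncertain.

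Of 14 cytotoxic granule and chemokine genes, 11 could be compared and 4 (Gzma, Ccl3, Ccl4 and Ccl5) were at least 2-fold lower than in Cd28 Socs2 Cd40lg cells, against 1 (Ccl5) in matched cells. The median log2 ratio of the compared genes was -0.66 and -0.15, and the granule genes Nkg7 and Ctsw and the death ligand gene Fasl were at 0.900, 0.957 and 1.01 times all Cd28 Socs2 Cd40lg cells. Gzma was at 227 (197 to 261) CPM in Il4 cells against 940.4 (919 to 962) and 382 (366 to 399). Gzmb, the granzyme of killer cells, was at 836 (778 to 898) CPM, 0.592 times the first and 0.961 times the second. Ccl3 was 2.39-fold lower than in all Cd28 Socs2 Cd40lg cells but at 1.05 times the matched cells, so its direction turned with the limits. The chemokine Ccl5 kept a difference of 2.15-fold (2.08 to 2.23) in matched cells, at 3719 (3594 to 3847) against 8013 (7938 to 8088) CPM, with a median of 8 UMIs per Il4 cell and 18 per matched cell. Vim and Anxa2, which encode vimentin and annexin A2, were also 4.10-fold and 2.89-fold lower than in matched cells, and Cd7, a surface protein of T and NK cells, 1.68-fold lower.

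**Figure D3:**
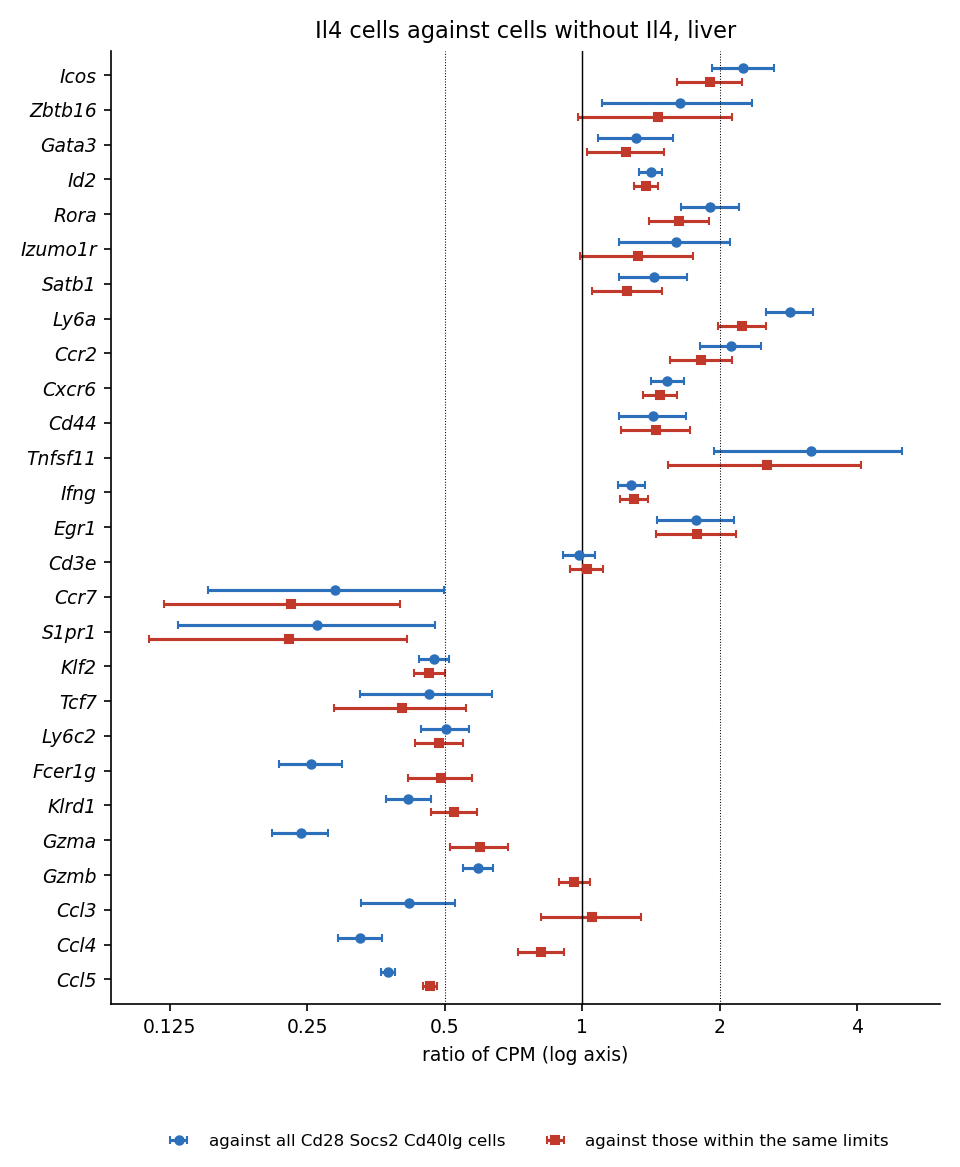
Ratio of CPM between Il4 cells and cells without Il4 (x axis, log axis) for genes of the lists, with exact binomial 95% intervals. Circles are ratios to all Cd28 Socs2 Cd40lg cells and squares to those within the same NK and myeloid limits. Ccr7, S1pr1, Klf2, Tcf7 and Ccl5 stay to the left of 1 in both, while Gzmb and Ccl3 move to 0.961 and 1.05 in matched cells.

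Il4 was accompanied by Ifng and by almost no other type 2 cytokine. Ifng was at 1095 (1028 to 1166) CPM in Il4 cells, 855 (834 to 875) in Cd28 Socs2 Cd40lg cells and 628 (615 to 640.5) in other cells. It was detected in 240 Il4 cells (81.9%, 77.0% to 86.1%), from 0 to 17 UMIs with a median of 2. Ifng was also common outside them, in 73.1% of Cd28 Socs2 Cd40lg cells, 70.1% of matched cells and 60.4% of other cells. Il13 had 1 UMI, and Il5, Il9, Il10, Il3 and Il21 had none in 896813 UMIs, which allows up to 3.35 CPM each. Il13, Rad50 and Il5 lie next to Il4 on chromosome 11, and Rad50 was alike in the groups, at 21.2 (12.8 to 33.1) and 19.6 (16.6 to 22.9) CPM. Il2 was at 24.5 (15.4 to 37.1) CPM against 27.4 (23.9 to 31.2), and Tnf at 62.4 (47.2 to 81.1) against 43.9 (39.4 to 48.8). Of the 13 type 2 cytokine and partner genes only Il4ra could be compared, at 0.848 times the Cd28 Socs2 Cd40lg cells. Il17rb, a subunit of the interleukin 25 receptor, had 7 UMIs in 6 Il4 cells, 7.81 (3.14 to 16.1) CPM, against 0.753 (0.276 to 1.64).

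Of the 12 genes of the type 1 programme 8 could be compared and none differed by 2-fold, with a median log2 ratio of 0.16. Tbx21, which encodes T-bet, was at 66.9 (51.1 to 86.1) against 70.9 (65.2 to 77.0) CPM, and Il18r1, a subunit of the interleukin 18 receptor, at 79.2 (61.8 to 99.9) against 54.3 (49.3 to 59.7). Eomes had 0 UMIs, at least 3.08-fold below the 10.3 (8.19 to 12.8) CPM of the Cd28 Socs2 Cd40lg cells.

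Il17a had 70 UMIs in 12 Il4 cells, of which 25 were in 1 cell and 16 in another, so its level of 78.1 CPM rests on few cells. Of 10 interleukin 17 programme genes, 2 could be compared (Il17a and Cd163l1) and neither differed by 2-fold. Among the 20 genes of the response to T cell receptor signals, 16 could be compared and none differed by 2-fold, with a median log2 ratio of 0.15. Egr1 was at 145 (121 to 172) against 81.6 (75.4 to 88.1) CPM and Bcl2a1b, of a family of survival factors, at 219 (189 to 251) against 119 (112 to 127), while Nr4a1 and Nr4a2 were at 0.735 and 0.584 times. Bcl2a1d, from the largest ratios, was 2.86-fold (2.31 to 3.52) higher, though Bcl2a1 genes are near-identical copies that can share reads.

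None of the compared genes of the cytokine receptor and SOCS (7 of 15), heat shock (10 of 10), interferon response (5 of 11) and cell cycle (1 of 12) lists differed by 2-fold, with median log2 ratios of 0.22, 0.12, 0.02 and 0.03. The interferon gene Ifi27l2a came nearest, at 1.95-fold (1.75 to 2.18) the level of the Cd28 Socs2 Cd40lg cells. In the myeloid list, 2 of 16 genes could be compared and neither differed by 2-fold, but against matched cells Cd74 was 2.07-fold higher through the 1 cell described above. Among the 15 genes with the largest ratios, Ero1l, an oxidoreductase of the endoplasmic reticulum, was 2.62-fold (1.97 to 3.44) higher. The phosphatase gene Inpp4b was 2.31-fold (1.80 to 2.93) higher, Lmo4 2.26-fold (1.87 to 2.72) and the creatine kinase gene Ckb 2.03-fold (1.82 to 2.27). Hbegf, a growth factor gene, was 2.12-fold (1.59 to 2.79) higher, with 12 of its 65 UMIs in 1 cell, but lower (log2 ratio -0.37) in the 48 cells with at least 2 Il4 UMIs. Tmem64, 5430421N21Rik, Ly6g5b and Tmem176b completed the 15, at 2.64, 2.54, 2.28 and 1.90 times.

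At equal depth the shares of cells with a UMI followed the same order. After thinning to 1500 UMIs, Ly6a was detected in 43.3% of Il4 cells, 20.2% of matched cells and 6.13% of other cells (unthinned 60.1%, 30.7% and 9.66%). Icos was detected in 27.3%, 13.9% and 5.14% (unthinned 40.3%, 22.8% and 8.64%). Klf2 was detected in 53.9%, 69.1% and 63.9% (unthinned 70.3%, 78.9% and 75.8%). Tyrobp Ncr1 cells, at a median of 2771 UMIs, had Ly6a in 3.06% and Icos in 3.00% of thinned cells. Thinning left out no Il4 cell, 1 Cd28 Socs2 Cd40lg cell and 4 other cells.

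**Figure D4:**
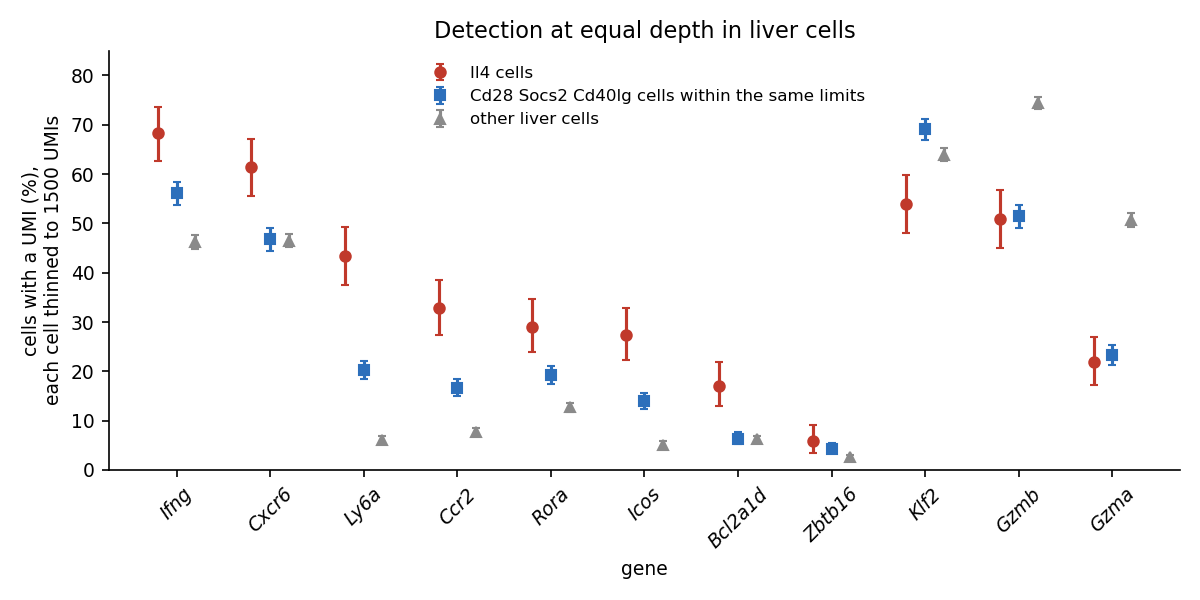
Share of cells with a UMI of each gene (y axis, percent) after every cell was thinned to 1500 UMIs, with exact binomial 95% intervals. Circles are Il4 cells, squares matched Cd28 Socs2 Cd40lg cells and triangles other liver cells. Ly6a is found in 43.3% of the Il4 cells and Klf2 in 53.9%, the first above and the second below both other groups.

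Against the 5291 other liver cells, of which 41 held Il4 past the NK limit, the difference was wider, with NK receptor and cytotoxic genes among the largest. Of 2646 compared genes, 42 (1.59%) were at least 2-fold higher and 77 (2.91%) at least 2-fold lower in the Il4 cells. Of 18 NK receptors, 10 of the 13 compared were at least 2-fold lower, and of 14 cytotoxic genes 6 of 11, with Gzma at 227 (197 to 261) against 3151 (3123 to 3179) CPM and Ccl4 at 377 (338 to 419) against 4239 (4206 to 4272). The limits on Tyrobp and Ncr1 had been put on the Il4 cells only. Among the genes that were higher, Ly6a was at 7.18-fold (6.34 to 8.11), Izumo1r at 5.98-fold (4.40 to 8.03) and Icos at 5.06-fold (4.30 to 5.93). With the same limits on the other cells, 26 genes were at least 2-fold higher and 71 lower of 2619. The log2 ratio of Gzma then moved from -3.79 to -2.39, that of Ccl4 from -3.49 to -1.40, that of Ly6a from 2.84 to 1.86 and that of Icos from 2.34 to 1.36. Without these limits on the other cells, Mmp9, which encodes a secreted matrix protease, was 4.05-fold higher and the tetraspanin gene Cd81 3.86-fold. With them, the log2 ratio of Mmp9 moved from 2.02 to 1.32 and that of Cd81 from 1.95 to 2.39. Slamf6 was at 35.7 (24.4 to 50.4) CPM against 10.1 (8.54 to 11.8) in all other cells. Sh2d1a, which encodes the adaptor SAP of the Slam receptors, was at 115 (93.7 to 139) against 42.9 (39.7 to 46.3). With the same limits on the other cells, the log2 ratio of Sh2d1a moved from 1.42 to 0.79, under 2-fold. Slamf6 and Sh2d1a were at 1.25 and 1.04 times the Cd28 Socs2 Cd40lg cells. Il17a, Blk and Cd163l1, of the interleukin 17 programme, were at least 2-fold lower than in other cells, with Il17a at 78.1 against 247 CPM and Cd163l1 at 39.0 against 119. With the same limits on both sides their log2 ratios went from -1.66 to -2.85 and from -1.61 to -2.83.

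Within the Il4 cells, most of these genes overlapped between cells with 1 Il4 UMI and cells with more. The 48 cells with at least 2 Il4 UMIs and the 245 with 1 had median depths of 2848 and 2868 UMIs. Icos was at 277 (199 to 374) CPM in the former and 212 (180.3 to 248) in the latter, Ly6a at 461 (359.6 to 583) and 407 (362 to 455), Ifng at 1186 (1019 to 1373) and 1076 (1003 to 1154), and Cd28 at 869.8 (728 to 1031) and 867 (801 to 937). The intervals of these 4 genes overlapped, as did those of Socs2 at their edges, at 633 (512 to 772) against 462 (414 to 513). Those of Bcl2a1d, at 244 (172 to 336) against 111 (88.7 to 138), did not, but 10 of its 37 UMIs in the 48 cells were in 1 cell. Its shares of cells with a UMI, 39.6% (25.8% to 54.7%) and 24.9% (19.6% to 30.8%), had overlapping intervals. The cell with 11 Il4 UMIs had 6634 UMIs in all, 12 of CD3 chains, 4 each of Ifng and Ly6a, and none of Cd28, Socs2 or Cd40lg.

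The 47 Il4 cells with fewer than 2 UMIs of Cd28, Socs2 and Cd40lg were like the other 246 in some genes. Their higher levels of Il17a and Ccl4 rested on few cells. Icos was at 199.9 (132 to 291) CPM in the 47 and 227 (195 to 264) in the 246. Ly6a was at 333 (243 to 446) and 431 (385 to 479.8), and Ccr2 at 311 (224 to 420.4) and 222 (189.7 to 258). The intervals of the 47 and the 246 overlapped for each of these genes. Cd28, which split them, was at 104 and 1003 CPM. Il17a was at 363 and 27.6 CPM, and of the 6 Il4 cells with at least 3 Il17a UMIs 5 were among the 47. Ccl4 was at 985 against 269 CPM, but 1 of the 47 cells held 57 of their 133 Ccl4 UMIs and another held 17. A Ccl4 UMI was found in 59.6% (44.3% to 73.6%) of the 47 and 50.8% (44.4% to 57.2%) of the 246, with overlapping intervals. In thinned cells these shares were 29.8% and 31.3%.

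Il4 cells lay near each other among the liver cells. In 30 principal components computed from 2000 variable genes without the genes of the selection, 21.1% of the 15 nearest neighbours of an Il4 cell were Il4 cells, against 3.69% over all kept cells, 8.94% for matched cells and 0.670% for Tyrobp Ncr1 cells. At least 1 Il4 cell was among the neighbours of 263 of the 293. Of their neighbours 79.9% had at least 2 UMIs of Cd28, Socs2 and Cd40lg, and 67.4% for the 47 Il4 cells that did not have them. No Il4 cell had more than 9 Il4 cells among 15 neighbours.

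In the thymus, the same selection found 30 of 4351 kept cells, 0.689% (0.466% to 0.983%), at a greater median depth of 5483 UMIs against 3940.5 in thymic Cd28 Socs2 Cd40lg cells. Of these 30, 25 had 1 Il4 UMI, 3 had 2 and 2 had 3, and thinned to 1500 UMIs 30% still had one. They carried Zbtb16 at 183 (122 to 264) CPM, against 13.8 (11.6 to 16.5) in the 1986 thymic Cd28 Socs2 Cd40lg cells and 39.0 (27.2 to 54.3) in the Il4 cells of the liver. Icos was at 235 (165 to 326) CPM, close to the 223 (193 to 256) of the liver, and Izumo1r at 653 (532 to 795) against 69.1 (53.0 to 88.6). Zbtb16 was found in 15 of the 30 cells, Icos in 14 and Izumo1r in 21.

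Other genes of the thymic Il4 cells differed from those of the liver. Cd40lg had 0 UMIs and Socs2 2 UMIs. At least 2 UMIs of the 3 genes were found in 18 of 30 (60%, 40.6% to 77.3%), against 46.0% of the remaining thymic cells. That interval includes 46.0%, and the thymic Il4 cells had the greater depth. Ifng, with 4 UMIs in 2 thymic Il4 cells, was at 26.1 (7.12 to 66.9) CPM there against 1095 (1028 to 1166) in the liver. Il13 had 4 UMIs in 3 cells, 26.1 (7.12 to 66.9) CPM, against 0.973 (0.445 to 1.85) in thymic Cd28 Socs2 Cd40lg cells. Klf2 was at 281 (203 to 378) CPM, against 522 (508 to 537) in the thymic comparison cells, lower as in the liver. Ly6a and Cxcr6 were higher in both tissues, at 7.74 and 6.08 times the comparison cells in thymic cells and 2.84 and 1.53 times in liver cells. Gata3 was at 0.445 times in thymic cells and 1.31 times in the liver. The thymic comparison cells carried Cd24a at 444 CPM and Socs2 at 8.33, unlike those of the liver (15.1 and 269.9), so the ratios in the tissues have different denominators. Tissue and library cannot be told apart.

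**Figure D5:**
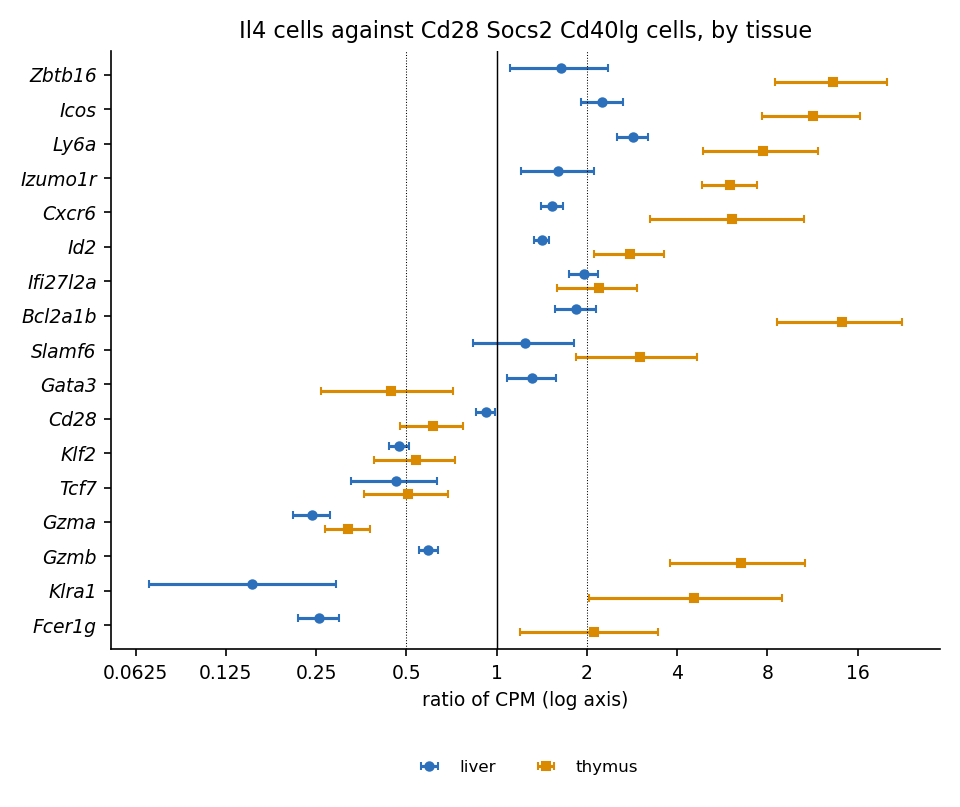
Ratio of CPM between Il4 cells and Cd28 Socs2 Cd40lg cells without Il4 (x axis, log axis) in the liver (circles, 293 against 2491 cells) and the thymus (squares, 30 against 1986 cells), with exact binomial 95% intervals. Icos, Ly6a and Zbtb16 lie to the right of 1 and Klf2, Tcf7 and Gzma to the left of it in both, while Klra1 and Fcer1g lie on opposite sides.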

How the data were processed

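Libraries were made by the authors with 10x Genomics 3′ v2 chemistry, and the submitters' processing notes name Cell Ranger, Seurat 3.0 and mm10. The authors deposited raw UMI counts per gene and barcode (27998 genes, without normalization), which were used as they stand. Antisense and overlapping genes can share reads where counting ignores strand, which the sources used here do not give. Cells were filtered and grouped by the rule given above in Python 3.11.15 with numpy 2.4.6 and scipy 1.17.1, and neighbours were taken with scanpy 1.11.5 and scikit-learn 1.9.0. Tables and plots used pandas 2.3.3 and matplotlib 3.10.9. UMIs were summed per group. Genes reported are those of 22 lists and, per comparison, the 15 largest log2 CPM ratios each way, ranked with 10 CPM added, among genes that reached a sum of 50 UMIs and 50 CPM in the higher group, without mitochondrial, ribosomal-protein and selection genes. Genes of the lists numbered 272, of which all but Pclaf were found. The members and lists were chosen with earlier results of these data known. The code for fold calls was tested on simulated counts. Thinning used seed 11. Alternatives changed cell filters, Il4 minimum, NK and myeloid limits, depth, scaling and gene minimums. A gene chosen by these steps is not reported here.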

Additional observations from a re-analysis of the deposited data

Results flagged for a closer look

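Among the genes of the lists, 2 were at least 2-fold apart in opposite directions in the 2 tissues when Il4 cells were set against Cd28 Socs2 Cd40lg cells, and the difference between the tissues was not tested. Fcer1g was 3.92-fold lower in the liver and 2.11-fold (1.20 to 3.46) higher in the thymus, a difference of -3.05 on the log2 scale (liver minus thymus), with 16 UMIs in 7 thymic Il4 cells. Klra1 was 6.57-fold lower in the liver and 4.57-fold (2.04 to 8.97) higher in the thymus, a difference of -4.91, with 9 UMIs in 4 thymic Il4 cells, of which 6 UMIs were in 1 cell. In the liver the limit on Tyrobp and Ncr1 lay on the Il4 cells only, and against matched cells Fcer1g was 2.04-fold and Klra1 4.41-fold lower. In the thymus no cell with Il4 was left out by that limit.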

How the results depend on the processing

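No paired analysis was possible because each tissue has 1 library and no comparison has replicate numbers to pair. Requiring at least 2 Il4 UMIs left 48 cells in the liver and 5 in the thymus, 1.61% of the liver cells with at least 2 UMIs of Cd28, Socs2 and Cd40lg, and gave 203 genes past 2-fold against the Cd28 Socs2 Cd40lg cells and 290 against the other cells, with fewer cells behind each value and no log2 ratio for 5 genes and comparisons at 0 UMIs. The share of Il4 cells among cells with Cd28, Socs2 and Cd40lg moved to 6.89% with no Tyrobp or Ncr1 UMI allowed, 10.1% with no NK and myeloid limits, 12% with the limits on both sides and 6.88% with every cell thinned to 1500 UMIs. Thinning left 9 thymic Il4 cells and gave 69 genes past 2-fold against the Cd28 Socs2 Cd40lg cells, in place of 38. Totals without mitochondrial and ribosomal-protein UMIs gave 62 there, with 3445 genes compared in place of 2577, and shifted the median log2 ratio to the other cells to 0.11. Without minimums of UMIs and CPM the counts were 4704 of 13984 and 5944 of 14989 genes. With at least 2 Il4 UMIs the log2 ratio reversed for Hbegf (-0.37 against Cd28 Socs2 Cd40lg cells, -0.17 against other cells) and, against other cells, for Cd74 (0.57), H2-Aa (0.88) and H2-Ab1 (0.26). With the limits on both sides the log2 ratio of Ccl3 to Cd28 Socs2 Cd40lg cells changed sign but lay near equality (0.074). Against other cells the log2 ratio then reversed for H2-Aa (0.23) and Apoe (0.44). The cause was not tested, beyond the 1 cell that holds most class II UMIs. Of 32 reported genes past 2-fold against the Cd28 Socs2 Cd40lg cells, 19 stayed past it with the limits on both sides and 22 after thinning, and of 63 against other cells 41 and 53. Depth limits what an absent Il4 UMI can show, and 1 library per tissue what any difference can.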
